A study of Sus scrofa with 8 samples.

Results

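The genes described here are the receptor-sized LOC genes of the pig, which are protein-coding genes that carry only a provisional LOC number and whose protein is encoded by 1 exon of 900 to 990 bp. They were chosen by values in the deposited gene annotation: a name beginning with LOC, the biotype protein_coding, and exactly 1 coding row of that length, without the stop codon, in every coding transcript. The rule found 1235 genes among 20674 protein-coding genes with a coding model and 30390 genes in all. The annotation served 3′ sequencing of RNA from single cells of tracheal submucosal glands (SMG). The glands came from newborn pigs, 4 of them wild-type and 4 CFTR-/-, which lack the chloride and bicarbonate channel mutated in cystic fibrosis, and each animal gave 1 library. All 8 libraries were counted against this 1 annotation. The counts were not analysed here and no library's depth is known, so each gene has 1 value, there are no replicates, and every comparison below is a description without a test.

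Olfactory receptors are G protein-coupled receptors that detect odorants, and they form the largest gene family of mammals. Their protein is usually encoded by a single uninterrupted exon, spans the membrane repeatedly and carries short motifs shared by most members. The genes lie in tandem clusters, class I receptors are named as families 51 to 56 and class II receptors as families 1 to 14, and each olfactory neuron is thought to use only 1 of them. In 3′ sequencing a read comes from near the poly(A) tail, so the annotated 3′ untranslated region (3′ UTR) decides which reads fall inside a gene model.

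Most of these genes were described as olfactory receptors. The product text began with "olfactory receptor" in 1120 of the 1235 genes and held these words after another word, such as putative, in 51 more, which gave 1171 olfactory receptor members. The annotation held 1679 such genes in all, so the rule took 69.7% of them. The other 508 included 322 with more than 1 coding row and 179 LOC genes with 1 coding row outside the window, 112 of them shorter and 67 longer. The remaining 64 members had other descriptions, among them 22 uncharacterized proteins, 7 vomeronasal receptors, which sense pheromones in many mammals, 6 relatives of the myeloid-associated differentiation marker, 4 melanoma-associated antigens and 2 bitter taste receptors.

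A letter and family number could be read from 1030 descriptions, which fell into 17 families. The largest were family 4 with 164 members, family 2 with 154, family 5 with 106 and family 6 with 102. Families 51, 52 and 56 of class I held 35, 85 and 17 members. The other 141 olfactory receptor members carried a description without a lettered family, such as the numbers used for mouse genes.

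The coding sequences shared stretches that carry the motifs of olfactory receptors. The stretches below are among the most shared runs of 30 bases that start at a codon boundary, taken at 3 places more than 20 codons apart, and are shown as the sequence by which the family can be recognised. The genome is Sscrofa11.1 and each is written 5′ to 3′ on the strand of its gene. Capitals mark the codons for Pro-Met-Tyr in the first, Asp-Arg-Tyr in the second and the run from Asn-Pro to Tyr in the last. The first lies at chr1:262615352-262615381 on the plus strand in LOC100517451, the second at chr5:20387561-20387590 on the plus strand in LOC100154719, and the last at chr2:64012020-64012049 on the minus strand in LOC100520363.
LOC100517451, codon 55 onward: ctccacaccCCCATGTACttcttcctcagc
LOC100154719, codon 116 onward: atgtcctatGACCGCTACgtggccatctgc
LOC100520363, codon 285 onward: ctgAACCCCTTCATCTACagcctgaggaac

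These stretches were found exactly in 24, 32 and 30 members. A window with at most 6 mismatches was present in 596 members for the first, 873 for the second and 507 for the last, and every one of these was an olfactory receptor member. At least 1 of the 3 stretches was found in 1041 of the 1171 olfactory receptor members (88.9%) and in 0 of the 64 others, and all 3 were found in 320. Matches began at a median of codon 55, 118 and 285. The stretches were picked from these same sequences, so the counts describe them and do not test the descriptions. Among the coding genes outside the olfactory receptor descriptions, 9 held a match. These were chosen after their values were seen and comprised 4 putative gustatory receptor genes (LOC396788, LOC110258305, LOC110258478 and LOC110259153), the melanocortin receptors MC1R and MC3R, the histamine receptor HRH1, the nociceptin receptor OPRL1, and the enzyme MCCC1.

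The second stretch differed by family in the codons in capitals. This is the end of the third transmembrane segment, where Asp-Arg-Tyr is the motif by which receptors of this kind couple to their G protein. The window nearest to the second stretch was taken in each member. That stretch encodes Asp-Arg-Tyr and is itself the most frequent form of family 6. The choice of window could thus favour this motif, most of all in family 6, and the counts by family are descriptions. The lines below give the most frequent form in 9 families, with the number of members that carry exactly that form, and the capitals mark the 3 codons at the place of Asp-Arg-Tyr.
Family 1 (12 of 63 members), LOC100517451 at chr1:262615541-262615570, plus strand: atggcctatGACAGGTATgtggccatttgt
Family 2 (10 of 154), LOC100156148 at chr7:21038272-21038301, minus strand: atggcctatGACCGCTATgctgccatctgc
Family 5 (16 of 106), LOC110259714 at chr2:12043223-12043252, plus strand: atggcttatGACCGCTATgctgccatttgt
Family 6 (32 of 102), LOC100154719 at chr5:20387561-20387590, plus strand: atgtcctatGACCGCTACgtggccatctgc
Family 7 (12 of 82), LOC100511247 at chr2:62999018-62999047, plus strand: atggcctatGACCGCTTTgtggccatctgc
Family 8 (6 of 51), LOC100525476 at chr9:50798579-50798608, plus strand: atggcgtatGATCGCTATgtggccatctgt
Family 10 (11 of 70), LOC110257987 on an unplaced scaffold, bases 22847 to 22876, minus strand: atggcttttGACCGCTATatggccatatgc
Family 51 (3 of 35), LOC100515268 at chr9:4621567-4621596, plus strand: atggcctttGATCGCTTTactgccatctgc
Family 52 (6 of 85), LOC100515742 at chr9:3675767-3675796, plus strand: atggccctgGACCGCTATgtggccatctgc

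Asp-Arg-Tyr codons stood at this place in 879 olfactory receptor members (75.1%) and Asp-Arg-Phe codons in 194 (16.6%). The phenylalanine form prevailed in family 7, with 68 of 82 members (82.9%) against 9 with tyrosine (11%), and it was encoded in all 13 members of family 12. It was also encoded in 2 of the 3 members of family 3 and in 39 of the 141 members without a lettered family. Family 51 was divided, with 13 of 35 members holding Asp-Arg-Tyr and 12 holding Asp-Arg-Phe. By contrast, Asp-Arg-Tyr was encoded in 97 of 102 members of family 6, 49 of 51 of family 8 and 78 of 85 of family 52. The other 98 olfactory receptor members had neither form in the window taken, which may lie elsewhere in a distant sequence. In all 9 forms shown the capitals began with codons for Asp and Arg, and the last codon was for Phe in families 7 and 51 and for Tyr in the others.

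**Figure D1:**
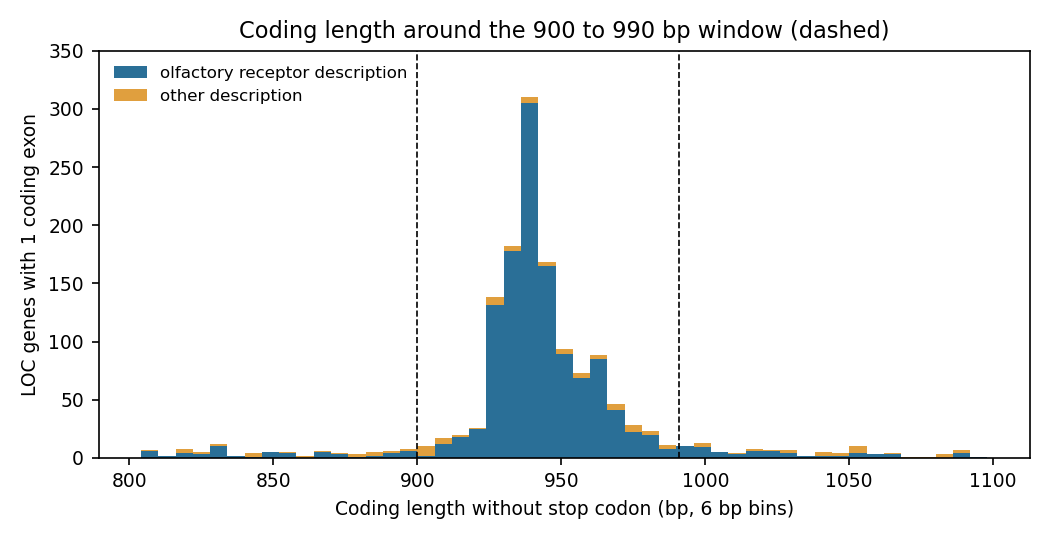
Coding length in bp (x axis, bins of 6 bp) against the number of LOC genes with 1 coding exon (y axis), with olfactory receptor descriptions in blue, other descriptions in orange and the window dashed. The peak lies inside the window, with a median of 939 bp, and few genes stand at either edge.

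The length of the coding exon was what the rule used, and its distribution is given as a description. The median was 939 bp with quartiles of 933 and 951 bp, and the most frequent length was 936 bp, or 312 codons, in 213 members. Just inside the lower edge 7 members had 900 bp, of which 1, LOC110255349, was described as an olfactory receptor, and the others included the mitochondrial ornithine transporter LOC100523054. Just outside it 7 LOC genes had 897 bp, of which 5 were olfactory receptors and 2, LOC110261363 and LOC110261366, vomeronasal receptors. At the upper edge LOC100736698, an olfactory receptor of family 10, had 990 bp, and the 9 LOC genes at 993 bp just outside were all described as olfactory receptors. The plot of coding length shows the narrow peak between these edges.

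The reading frames were complete at both ends in nearly all members. The frame began with ATG in 1229 members (99.5%), against 99.2% of all coding genes. The stop codon was TGA in 43.7%, TAA in 37.7% and TAG in 18.5% of members, where all coding genes had 49.8%, 27.6% and 22.3%. A purine stood 3 bases before the first codon, as in the usual context for translation, in 64.1% of members and in 79.2% of all coding genes. The median GC content of the coding sequence was 47.2% in members and 54.5% in all coding genes. Among the families it ran from 42.8% in families 5 and 6 to 56.2% in family 56.

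Most members lay near other members in the genome. Members at most 100 kb apart were joined, and this gave 165 clusters of at least 2 members that held 1100 members (89.1%), with 135 members alone. Coding genes of any kind are spaced closely too, and 95.3% of all coding genes were joined when the same distance was applied to all of them. Applied within the 2386 LOC genes outside the rule that were not olfactory receptors it joined 58.5%, and within the 77 named genes of the same size 13%. Of the olfactory receptor members 92.5% lay in a cluster, whereas 47 of the 64 other members were alone. Clusters held a median of 4 members, 49 were pairs, and 28 clusters of 10 or more members held 563 genes. Adjacent members in a cluster were separated by a median of 17.7 kb with quartiles of 10.7 and 33.5 kb.

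Members were found on 16 chromosomes and on 123 unplaced scaffolds, pieces of the assembly that are not assigned to a chromosome. Chromosome 9 held 223 members and chromosome 2 held 219, which was 18.7% and 11% of the coding genes there. Chromosomes 7, 5 and 1 followed with 70, 52 and 43, and chromosome 10 held 1. Unplaced scaffolds held 458 members, or 37.1%, where 5.39% of all coding genes lay on such scaffolds. Members made up 41.1% of all coding genes on unplaced scaffolds. A cluster on a scaffold cannot reach past its end, so the 85 clusters on scaffolds may be pieces of longer ones and their number is not a number of loci.

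**Figure D2:**
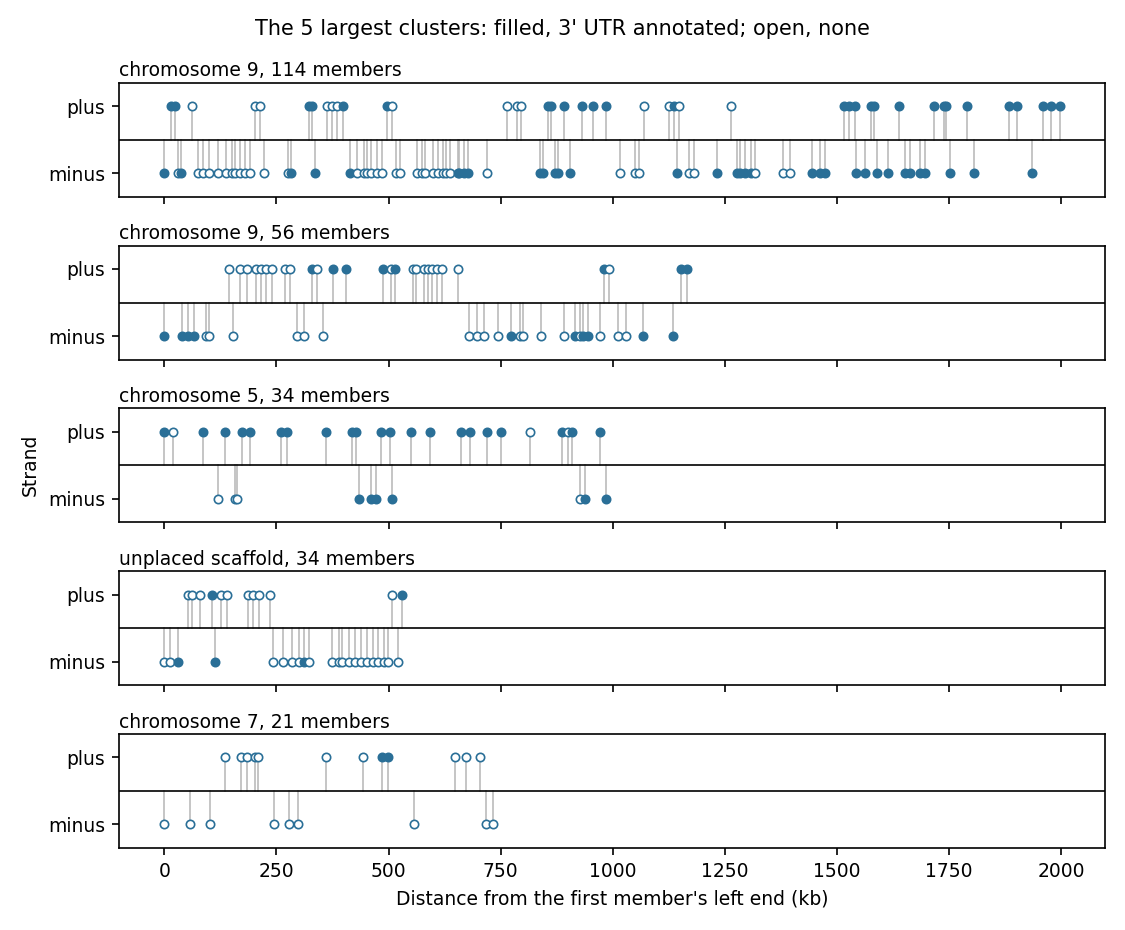
Position of each member (x axis, kb from the left end of the first member) in the 5 largest clusters, with the strand on the y axis. Filled points have an annotated 3′ UTR and open points have none, and the chromosome 5 cluster has the fewest open points, 7 of 34.

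The largest cluster was a class I cluster on chromosome 9, from 3472870 to 5474396, with 114 members over 2002 kb. It held 62 members of family 52, 31 of family 51 and all 17 of family 56, and no lettered family of class II. Its first member was LOC110255363, described as olfactory receptor 52W1, with a 3′ UTR of 1495 bp, and its last was LOC100738133, described as 51I2-like, with 3543 bp. The member of median coding length was LOC100517356, described as 52D1-like, with 954 coding bp and a 3′ UTR of 1207 bp. In this cluster 52 of 114 members had no 3′ UTR, and those with one had a median of 562.5 bp. RNA evidence was recorded for 89 of the 114. Members with a 3′ UTR were not spread evenly along the cluster. The last 29 members, from LOC100519554 to LOC100738133, all had a 3′ UTR and all had RNA evidence, and 16 of them belonged to family 51 and 13 to family 52. The longest run without one was 15 members, LOC110255216 to LOC100520757 near the other end, with 8 of family 52 and 7 of family 56, of which 7 had RNA evidence. These runs were picked after the values were seen.

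The next cluster also lay on chromosome 9, from 50612751 to 51779381, with 56 members over 1167 kb, of which 31 belonged to family 8. It ran from LOC106504901, described as 6X1, with a 3′ UTR of 269 bp, to LOC100524268 with 22 bp. Its member of median length, LOC100525476 of family 8, had 933 coding bp and a 3′ UTR of 0 bp. No 3′ UTR was annotated for 38 of the 56, and RNA evidence was recorded for 38 of the 56.

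The chromosome 5 cluster, from 20112632 to 21100204, held 34 members over 988 kb, 23 of them of family 6. Its first member LOC100524142, described as 9K2-like, had a 3′ UTR of 125 bp and its last, LOC110260682, 219 bp, while LOC110260842, of median length, had 1 bp. Only 7 of the 34 had no 3′ UTR, and all 34 had RNA evidence for the model. Its longest run of members with a 3′ UTR was 19, of which 17 belonged to family 6.

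A further 34 members stood on an unplaced scaffold of 631996 bp, over 532 kb, with 25 of family 4. LOC100518829, the first, had a 3′ UTR of 0 bp, LOC100515602, of median length, 64 bp, and LOC110259077, the last, 500 bp. The fifth cluster, on chromosome 7 from 79322713 to 80055842, held 21 members, all of family 4. Its first member LOC100519495 was also the one of median length, and both it and the last, LOC110261754, had a 3′ UTR of 0 bp. In these clusters 29 of 34 and 19 of 21 members had no 3′ UTR, so the largest clusters differed widely in how often a 3′ UTR was annotated. RNA evidence was recorded for 16 of the 34 and for 18 of the 21. The fifth cluster thus had RNA evidence for most members and a 3′ UTR for few.

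Of the 935 adjacent pairs of members in clusters, 673 (72%) lay on the same strand. Among all adjacent coding genes at most 100 kb apart the share was 50.8%, and it was 49.2% with the members left out. These measures differ, since adjacent members can have other coding genes between them. On chromosome 9 the share was 65.5% in the class I cluster and 80% in the family 8 cluster. Clusters differed, as 2 others picked after the values were seen show. All 16 members of a family 5 cluster on chromosome 13 lay on the minus strand. In a chromosome 2 cluster of 16 members, 10 of them of family 5, the share was 40%. The spans of the clusters held 1381 coding genes, of which 281 were no members, and 251 of these were olfactory receptor genes outside the rule. They also held 342 pseudogenes. In 86 clusters every coding gene was a member, and in 107 the members with a lettered family all belonged to 1 family. The 107 include clusters with only 1 lettered member, where this could not be otherwise, such as 1 of 10 members in a chromosome 9 cluster.

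The closest relative of a member by protein sequence often lay outside its cluster as assembled. BLASTP found a relative among the members for 1191, with a median identity of 93.8% and quartiles of 80.6% and 97.7%. The closest relative carried the same family number in 997 of 1011 cases in which both had one (98.6%). Family numbers were read from descriptions that may themselves rest on protein similarity, so this share is no test of them. It lay in the same cluster for 528 of the 1100 clustered members (48%), elsewhere on the same chromosome or scaffold for 111, and on another for 459. Of these 459, 444 involved an unplaced scaffold on at least 1 side, so their distance in the genome is not known. The median identity was 92.2% to a relative in the same cluster and 95.5% to one elsewhere. The members with no relative were 44, of which 1 was an olfactory receptor member.

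Identical coding sequences were shared by 23 members in 11 groups. The 3 genes LOC110257045, LOC110257046 and LOC110257048, all described as olfactory receptor 13J1-like, followed one another on chromosome 1 at 236605615, 236615070 and 236624079, with the same 936 coding bases. Their 3′ UTRs were annotated as 109, 81 and 497 bp. LOC110259615 and LOC110259616 of family 2, adjacent on chromosome 2, shared 921 bases and had a 3′ UTR of 0 bp each. Of the 13 identical pairs, 9 lay on the same chromosome or scaffold, 3 on separate unplaced scaffolds, and 1, LOC110261720 and LOC100155397, on chromosome 7 and an unplaced scaffold. In 4 pairs the 3′ UTRs differed in length, and in 8 neither copy had one. A read within an identical coding sequence cannot be assigned to 1 copy. A relative with at least 99% of the same amino acids over 95% of the length was found for 125 members.

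A 3′ UTR was missing from most members. The annotated 3′ UTR had a median of 0 bp, an upper quartile of 223 bp and a largest value of 12289 bp. It was 0 bp in 730 members (59.1%), and this was so for 8.88% of all coding genes, whose median was 715 bp. LOC coding genes outside the rule, olfactory receptor genes among them, had a median of 260 bp with 24.4% at 0 bp. The 2386 of them not described as olfactory receptors had a median of 337 bp with 15.3% at 0 bp. The 77 named genes with 1 coding exon of the same size had a median of 966 bp with 13% at 0 bp. Olfactory receptor genes outside the rule resembled the members, with a median of 0 bp and 67.5% at 0 bp. Within the members, 61.3% of the olfactory receptors and 18.8% of the others had none.

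**Figure D3:**
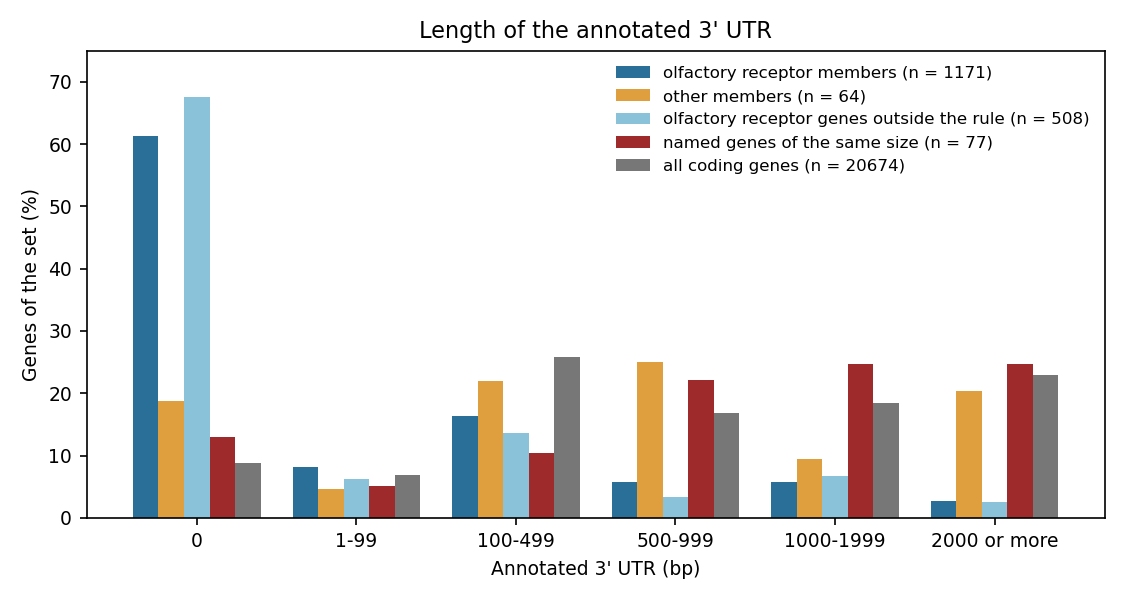
Share of genes (y axis, %) by length of the annotated 3′ UTR (x axis, bp) for the olfactory receptor members, the other members and 3 comparison sets. The bar at 0 bp reaches 61.3% for the olfactory receptor members and 8.88% for all coding genes.

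The 5′ side was similar. The 5′ UTR had a median of 3 bp and was 0 bp in 604 members (48.9%), against 11.4% of all coding genes. Neither UTR was annotated for 532 members (43.1%), so that their model was the coding exon and stop codon alone, against 6.56% of all coding genes. Both were annotated for 433, the 5′ UTR alone for 198 and the 3′ UTR alone for 72. Where a 3′ UTR was present, in 505 members, its median was 328 bp with quartiles of 131 and 918 bp, and in 99 of them it was shorter than 100 bp. All coding genes with a 3′ UTR had a median of 856 bp.

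The longest 3′ UTR, 12289 bp, belonged to LOC106504796 on chromosome 12, described as basic proline-rich protein-like. LOC110255376 of family 52, in the class I cluster, followed with 6795 bp, and LOC100516453, also of family 52, with 6762 bp. LOC100512341, described as AP2-associated protein kinase 1, had 6037 bp, and the uncharacterized LOC110260079 had 5728 bp. Among the olfactory receptors, picked after the values were seen, LOC100511705 of family 51 with 5291 bp and LOC100523256 of family 2 with 5187 bp came next. The longest 5′ UTR was 10825 bp in the uncharacterized LOC106507765. It was followed by LOC110259967, described as spermatogenesis-associated protein 31E1-like, with 7821 bp, LOC110256558, described as WNK4-like, with 7539 bp, and the olfactory receptors LOC100516735 with 7119 bp and LOC110255349 with 6877 bp. Long UTRs were thus found in olfactory receptors as well as in other members.

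Noncoding exons were rare. A coding transcript held an exon without coding bases in 57 members (4.62%), 48 with such an exon on the 5′ side and 9 on the 3′ side, against 46.3% of all coding genes. They were annotated in 24 olfactory receptors and 33 of the 64 other members. LOC106507765 had 4 on the 5′ side, and 6 members had 3. Among these were LOC100513809, described as a glycosyltransferase, and LOC100518085 of family 52. A single coding transcript was annotated for 1224 members (99.1%), where 51.1% of all coding genes had 1, and the most was 7.

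The presence of a 3′ UTR moved with the RNA evidence that RefSeq recorded for the model. RefSeq names, for each predicted transcript, the similar proteins and the share of the model covered by RNA-seq reads, as held in RefSeq's own evidence for the gene. RNA evidence was recorded for 829 members (67.1%), against 87.4% of all coding genes. The second share counts 1788 genes without any evidence text as lacking RNA evidence. Among the 18886 coding genes with such text the share was 95.7%. All members had evidence text, so their share stayed at 67.1%. Among the 299 members with RNA-seq over the whole model, 1 had no 3′ UTR, and the median was 496 bp. Among the 524 with RNA-seq over part of the model, at a median of 68% of it, 320 had none (61.1%). Of all coding genes with RNA-seq over part of the model, 746 of 5629 had none (13.3%). The share of the model covered is not given for these 5629 genes, so the groups were not matched for it. With RNA-seq over the whole model, all coding genes had a median of 860.5 bp, and 17 of 12410 had no 3′ UTR (0.137%). All 406 members that rested on protein similarity alone had a 3′ UTR of 0 bp, as had all 820 such genes in the annotation. Of the olfactory receptor members with RNA evidence 41.2% still had no 3′ UTR. For all coding genes this share is given here only by RNA-seq coverage, as above. Whether the evidence decided the annotated ends was not tested.

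**Figure D4:**
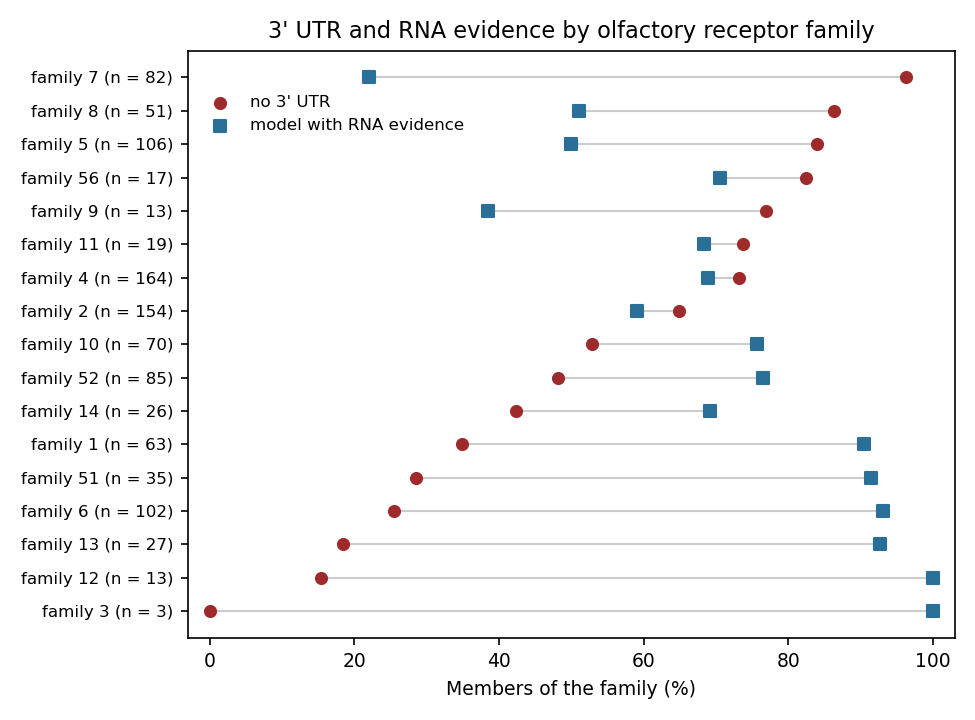
Share of members (x axis, %) without a 3′ UTR (red circles) and with RNA evidence for the model (blue squares) in each of the 17 olfactory receptor families (y axis). Family 7 stands at one end, with 96.3% lacking a 3′ UTR and 22% with RNA evidence, and family 3, with 3 members, at the other.

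The families differed in both measures, as the plot by family shows. In family 7, 79 of 82 members had no 3′ UTR (96.3%) and 18 had RNA evidence (22%). In family 8 the share without a 3′ UTR was 86.3%, in family 5 it was 84% and in family 4 it was 73.2%, and RNA evidence was recorded for 51%, 50% and 68.9%. At the other end family 12 had 15.4%, family 13 had 18.5% and family 6 had 25.5% without a 3′ UTR, and RNA evidence for 100%, 92.6% and 93.1%. Within the members that had RNA evidence, 15 of 18 lacked a 3′ UTR in family 7, 36 of 53 in family 5, 19 of 95 in family 6 and 3 of 25 in family 13. How far the evidence accounts for the order of the families was not tested. Family 56 stood apart within class I, with 82.4% lacking a 3′ UTR against 48.2% in family 52 and 28.6% in family 51, while RNA evidence was recorded for 70.6%, 76.5% and 91.4%. RNA-seq covered the whole model in 0 of 17 members of family 56 and in 32 of 85 of family 52.

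Annotated ends of members seldom followed a poly(A) signal, the hexamer that directs cleavage of the transcript. AATAAA or ATTAAA, on the strand of the gene, lay in the last 50 bp of 111 models (8.99%), against 60.9% of all coding genes. With a 3′ UTR the share was 12.3% in members and 66.4% in all coding genes, and without one it was 6.71% and 4.14%. Even members with a 3′ UTR of 100 bp or more had a signal in 13.8%. The next coding gene past the end of members without a 3′ UTR, on either strand, was a median of 15.5 kb away and closer than 1 kb for 1 of the 674 that had such a gene on the same chromosome or scaffold. For all coding genes the median was 14.5 kb, and the next gene was closer than 1 kb for 1840 of 20362.

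The bases around the annotated start, 250 before and 50 after, were searched on both strands for TATAAA, the TATA box, and for TCCC and GGGA separated by 2 bases, the core bound by the EBF factors of olfactory neurons. TATAAA was found in 28.2% of members and 11.6% of all coding genes, and in 26.9% of the members with a 5′ UTR. The EBF core was found in 3 members (0.243%) and in 1.04% of all coding genes. A start that coincides with the first codon need not be the start of the transcript, and the windows were not matched for base composition.

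Few members shared exons with other genes on their strand. Exon bases were shared by 10 members (0.81%), against 3.36% of all coding genes. By gene spans with introns, 39 members lay within or across a same-strand gene, and no share of all coding genes is given for this measure. LOC110259376 on chromosome 2, described as a calcium channel regulator, shared all 2318 bases with CBARP, and LOC110259967 shared 2226 bases with LOC110260117. LOC110260675 of family 6 shared 243 bases with LOC100157938, LOC106504536 shared 162 with FOXN3, and LOC100156472, described as olfactory receptor 6N1, shared 101 with LOC110260312.

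The 64 members without an olfactory receptor description resembled other genes more in their annotation. Their median 3′ UTR was 521 bp, RNA evidence was recorded for 92.2%, and the median GC content of the coding sequence was 57.9%. The 6 relatives of the myeloid-associated differentiation marker formed a cluster of their own on chromosome 7, with 3′ UTRs of 158 bp in LOC100737631, 170 bp in LOC100520032, 529 bp in LOC110261552, 1929 bp in LOC106504436, 1955 bp in LOC100156674 and 2076 bp in LOC100736871. All 6 had a 3′ UTR, in contrast to the vomeronasal receptors on chromosome 6. Of those 7, only LOC100622750, described as vomeronasal type-1 receptor 1, had one, of 735 bp. The bitter taste receptors LOC106507526 and LOC100522675, paired in a cluster on chromosome 5, had 461 and 458 bp.

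Other members named by the longest coding sequence of each description were spread over the genome. The melanoma-associated antigen 8-like gene LOC110257698 and the paraneoplastic antigen gene LOC110257703, both on chromosome X, had no 3′ UTR. The uncharacterized LOC102166862 had 747 bp, LOC110255949, described as sulfated surface glycoprotein 185-like, 2115 bp, LOC110256151, described as leucine-rich repeat extensin-like, 1417 bp, LOC110260879, described as vegetative cell wall protein-like, 610 bp, and LOC100513809 110 bp. LOC110259376 had 1308 bp and LOC110259967 had 2307 bp.

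The genes with which olfactory receptors work were annotated differently from the members. So were named coding genes at large, with a median 3′ UTR of 902 bp and 2.42% at 0 bp. All 20 genes of a list of olfactory signalling and regulation were found, with a median 3′ UTR of 1359.5 bp, and only RTP2, a chaperone that carries receptors to the membrane, had 0 bp. GNAL, the G protein subunit that receptors activate, had 3589 bp, ADCY3, the adenylyl cyclase it stimulates, 697 bp, the channel subunits CNGA2 and CNGA4 1011 and 790 bp, and OMP, a marker of mature olfactory neurons, 1391 bp. Named receptors with 1 coding exon, of the TAS2R, TAAR and P2RY families, had a median of 945 bp over 19 genes, and no gene named OR with a number, VN1R, MRGPR or FPR met the same rule. Of these 6 had no 3′ UTR, namely TAS2R7, TAS2R9, TAS2R39, TAAR2, TAAR4 and P2RY4.

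None of the members had been edited. The study's authors added or lengthened 3′ UTRs, shortened overlapping ones, renamed genes and added others. Their list of edits named 0 of the 1235 genes, and it named 1.14% of all coding genes. The paper reports a manual check of read alignments for genes with expression in airways of humans, pigs and mice. Whether any member was among the genes checked is not known here. The exons of all 1235 were the same as in RefSeq, and the rule applied to RefSeq returned the same 1235 genes.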

How the data were processed

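The authors applied 3′ scRNA-seq to tracheal SMG cells of newborn pigs, with 4 wild-type and 4 CFTR-/- animals. The deposited file used here is the gene annotation that the authors made from NCBI Sus scrofa Annotation Release 106 on Sscrofa11.1, edited and used as the Cell Ranger reference (3.0.2 in the submitters' processing notes). Its values are deposited coordinates, counted from 1. A read past the end of a model is not counted for that gene.

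The members and lists were chosen with earlier results of these data known. A 3′ UTR was counted as exon bases past the stop codon, in the coding transcript ending farthest 3′, and a 5′ UTR those before the first codon in the transcript starting farthest 5′. Olfactory receptor members held "olfactory receptor" anywhere in the product. Clusters joined members at most 100 kb apart. Sequences came from the RefSeq genome of the same build, and some are not reported here. The closest relative was the best BLASTP score (e-value at most 1e-05), and a tie counted for the same cluster. Genes named are the first, last and median-length members of the 5 largest clusters, the 5 longest UTRs on either side, the 3 with most noncoding exons (ties by name), other products by length, the first 3 identical pairs, the edges of the window, the 5 largest exon overlaps and the 2 lists. The vomeronasal, taste and myeloid-marker genes, and the olfactory receptors with long 3′ UTRs, were added after values were seen. The measures were tested on toy gene models, and 17 of 17 came out as made. Python 3.11.15, numpy 2.4.6, pysam 0.24.0, BLASTP 2.17.0 and matplotlib 3.10.9 were used.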

Additional observations from a re-analysis of the deposited data

How the results depend on the processing

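Of 32 alternatives to 13 results, 25 left the value within 1.5 times or, for the median, where it was. The number of members was 888 with both edges of the window moved in by 30 bp and 1302 with both moved out by 30 bp. Clusters numbered 210 with a gap of 50 kb and 127 with 500 kb, and 179 when other olfactory receptor genes could link, where 1 member was enough. On assembled chromosomes alone there were 80 clusters with 701 members. The median 3′ UTR was 328 bp over the members that had one, and 0 bp in the other alternatives run. A poly(A) signal was found in 201 models when the last 100 bp were searched. Shared exon bases of at least 100 were found in 6 members, and overlap of gene spans in 39. No share of all coding genes is given for these settings or for the search of the last 100 bp. An identical coding sequence was shared by 23 members, and a protein with at least 99% of the same amino acids over 95% of the length by 125. Pseudogenes carry no product text and could not link clusters. No paired analysis was possible because no gene has a value for each animal. Without counts, neither the depth nor the expression of any member in SMG is known here.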
